A study of Mus musculus with 6 samples.

Results

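Egr1, Egr2, Egr3, Nr4a1, Nr4a2, Nr4a3, Ier2, Ier3, Atf3 and Zfp36 are immediate early genes and their early feedback regulators. They were followed across 6 bulk RNA libraries of mouse tumours grown from B16, a melanoma cell line. The 10 genes were taken by symbol from a table of 34665 genes. All 10 were among the 16924 genes that passed the filter on low counts. In the RT_ICI group, radiation was combined with an immune checkpoint inhibitor (n = 3, replicates 1, 2 and 4). In the ICI group the inhibitor was given without radiation (n = 3, replicates 1, 2 and 3). The labels give the genotype of both groups as wild type. Both groups received the inhibitor, so the comparison is that of adding radiation. The sources used here do not give the inhibitor's target, the dose of radiation, when tumours were harvested or whether the harvested tumour lay in the irradiated field. The labels do not say that each library came from a different mouse, and the p-values therefore reflect only how far these libraries scatter, which may be technical. In bulk tissue, fewer cells of a type and less RNA per cell cannot be told apart.

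Immediate early genes are switched on within minutes of growth factor, antigen receptor or stress signals, without new protein synthesis. Factors already bound at their promoters, chiefly SRF with its ETS partners and CREB, carry the signal. EGR1, EGR2 and EGR3 are zinc finger transcription factors, and NR4A1, NR4A2 and NR4A3 are orphan nuclear receptors whose activity is set largely by how much of them is made. ATF3 is a basic leucine zipper factor of stress responses, IER2 and IER3 are small early response proteins, and ZFP36 (tristetraprolin) binds AU-rich elements in cytokine mRNAs and speeds their decay. In T cells, EGR2, EGR3 and the NR4A factors are known for limiting the response to antigen.

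The libraries held 22543721 to 45624013 counts. Levels are CPM (counts scaled to a common library total) after TMM scaling, which sets libraries to a common size through genes of typical behaviour. Markers of pigment cells were abundant in every library, with 7 melanoma genes summing to 10072 to 14379 CPM in RT_ICI and 13340 to 15180 CPM in ICI. RT_ICI replicate 1 stood apart: it had counts on 29748 genes, against 22763 to 24891 in the other 5 libraries, and the highest summed markers of endothelium, macrophages, neutrophils and skeletal muscle. Some single macrophage and neutrophil markers were, however, highest in ICI libraries. Earlier results of these data had also shown RT_ICI replicate 1 apart in immediate early genes. Results are therefore also given without it where it changes them. Leaving out a library picked for such values narrows the spread, so calls gained that way are not independent support. Genes are called where edgeR's quasi-likelihood test, adjusted by Benjamini-Hochberg over all tested genes, gives p under 0.05. By that rule 4.46% of tested genes were higher in RT_ICI and 4.72% were lower, 9.18% in all. Upper-quartile scaling gave 6.18% higher and 2.94% lower.

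Of the 10 genes, 3 rose in RT_ICI tumours and 0 fell. The genes that rose were Zfp36, Nr4a1 and Ier2. Without the adjustment, at p under 0.05 in edgeR, 5 were higher and 1 was lower, where 15.7% and 15.8% of all tested genes passed in those directions. DESeq2 called 5 higher and 1 lower, against 10.3% and 10.1% of all tested genes. The median log2 fold change of the 10 was 0.89, and that of all tested genes was 0.01. Log2 fold changes were above 0 for 9 of the 10, against 51.0% of tested genes. The exception was Nr4a3. The 3 RT_ICI libraries all lay above the 3 ICI libraries for 6 of the genes and Nr4a3 lay below in all 3, while 17.8% and 19.4% of all tested genes were separated in those directions. The genes whose groups overlapped were Egr2, Egr3 and Atf3. Of the 3 called genes, 0 were called without ICI replicate 1, without ICI replicate 3, without RT_ICI replicate 2 or without RT_ICI replicate 4, and 1, Ier2, without ICI replicate 2. In those 5 fits the adjusted p of Zfp36 lay between 0.0623 and 0.152, and its log2 fold change between 1.24 and 1.51. In the same fits 0 to 234 of all genes were called higher.

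**Figure D1:**
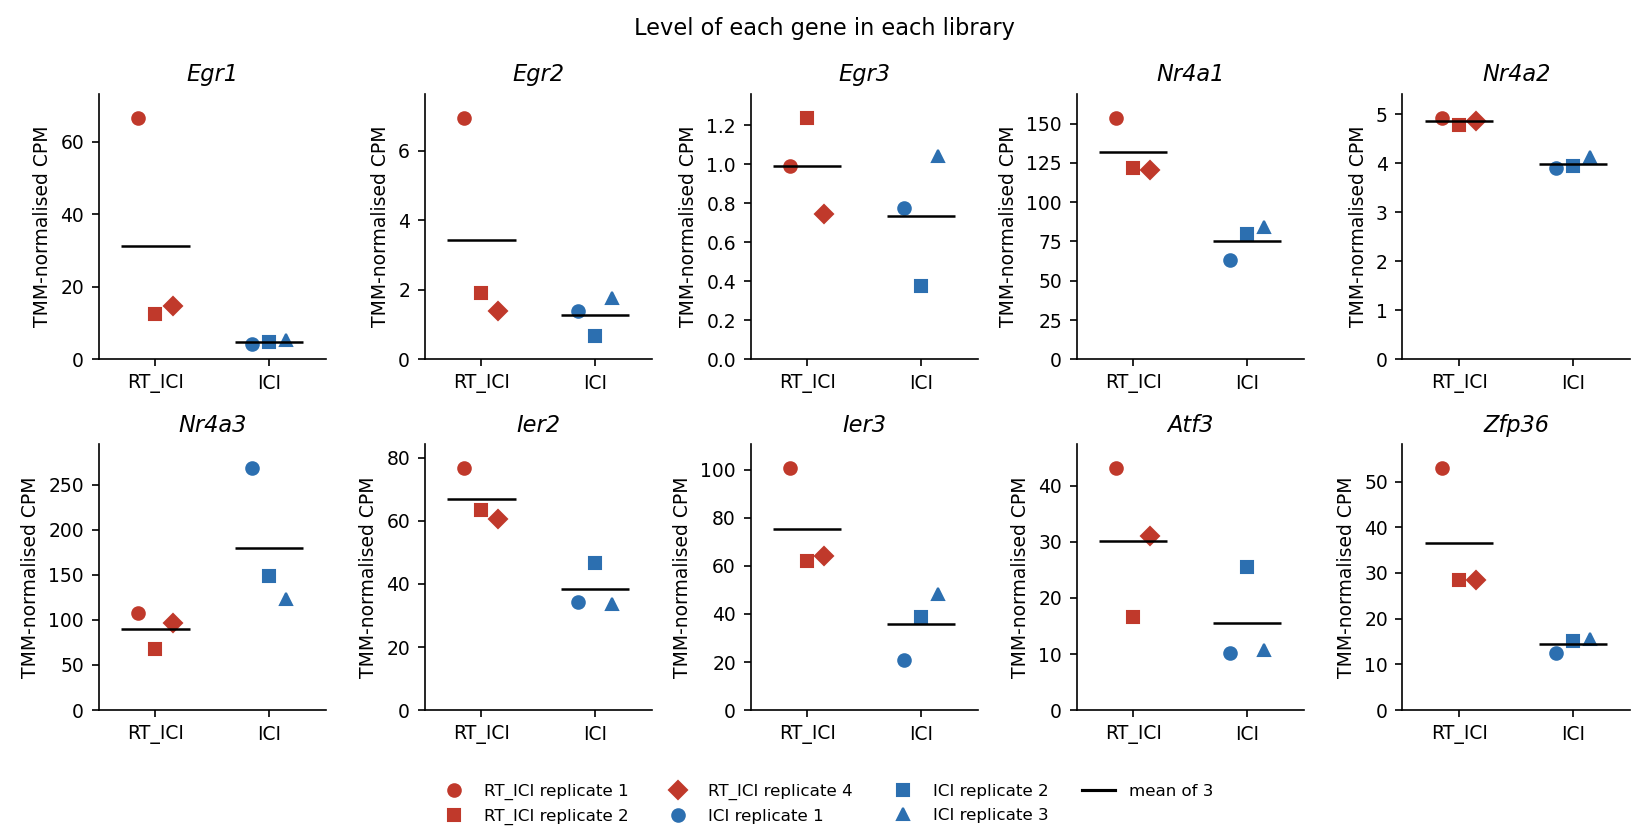
Level of each of the 10 genes in each library, in TMM-normalised CPM on a linear axis that starts at 0 and differs between panels; points are libraries and lines the mean of 3. Egr1, Nr4a1, Nr4a2, Ier2, Ier3 and Zfp36 separate the groups upward, of which Zfp36, Nr4a1 and Ier2 were called, and Nr4a3 separates them downward. RT_ICI replicate 1 holds the highest RT_ICI value of 9 genes, all but Egr3.

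Within the Nr4a family Nr4a1 rose, and neither Nr4a2 nor Nr4a3 was called. Nr4a1 (Nur77, ENSMUSG00000023034, chromosome 15, 101254269 to 101274795, plus strand, GRCm38) had 154, 121 and 120.3 CPM in RT_ICI replicates 1, 2 and 4, against 63.1, 79.6 and 83.9 CPM in ICI replicates 1, 2 and 3. It rose 1.75-fold (log2 fold change 0.80, SE 0.16, adjusted p = 0.0346, edgeR quasi-likelihood test), with means of 132 ± 19.0 CPM in RT_ICI and 75.5 ± 10.98 CPM in ICI (SD, n = 3 each). All 3 RT_ICI libraries were above the highest ICI library, and the values within each group spread at most 1.33-fold. Nr4a3 (NOR-1, ENSMUSG00000028341, chromosome 4, 48045153 to 48086447, plus strand) was at 107, 67.2 and 96.7 CPM in RT_ICI replicates 1, 2 and 4, against 268, 149 and 123 CPM in ICI replicates 1, 2 and 3. Every RT_ICI library lay below every ICI library, but ICI replicate 1 was far above the other 2 of its group. The log2 fold change was -0.99 (SE 0.31) and did not pass the test (adjusted p = 0.0799, edgeR). Over 17 alternative fits its log2 fold change ran from -1.23 to -0.60 and its adjusted p from 0.0124 to 0.215. Of those fits 2 called it lower, DESeq2 (adjusted p = 0.0124) and edgeR with the replicate number as a block (adjusted p = 0.0150).

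Nr4a2 (Nurr1, chromosome 2, 57106830 to 57124003, minus strand) was the steadiest of the 10. It had 4.93, 4.78 and 4.85 CPM in RT_ICI replicates 1, 2 and 4, and 3.91, 3.95 and 4.12 CPM in ICI replicates 1, 2 and 3. The groups did not overlap, yet the log2 fold change of 0.28 (SE 0.22) was not called (adjusted p = 0.401, edgeR). It rests on 104 to 212 counts per library.

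The balance within the family can be read inside each library, where scaling plays no part, although length and GC effects that differ between libraries remain. With the length and GC correction the log2 fold change was 0.56 for Nr4a1 and -0.85 for Nr4a3, in place of 0.80 and -0.99. Nr4a1 made up 57.8%, 62.8% and 54.2% of the counts of the 3 genes in RT_ICI replicates 1, 2 and 4, against 18.8%, 34.3% and 39.7% in ICI replicates 1, 2 and 3. Nr4a3 made up 40.3%, 34.7% and 43.6% in RT_ICI, against 80.0%, 64.0% and 58.3% in ICI. The 95% Wilson intervals of these shares reach at most 1.42 percentage points to either side, for counting error only. The ratio of Nr4a1 to Nr4a3 counts was 1.24 to 1.81 in RT_ICI and 0.235 to 0.682 in ICI. The transcripts differ in length, and in CPM per kilobase Nr4a1 was above Nr4a3 in each RT_ICI library, while in ICI it was above Nr4a3 in replicates 2 (31.2 and 26.0) and 3 (32.9 and 21.5) and below it in replicate 1 (24.7 and 46.9). Summed over the family, the level was 266, 194 and 222 CPM in RT_ICI and 335, 232 and 211 CPM in ICI, and the groups overlapped. This family balance was chosen for description after its values were seen.

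**Figure D2:**
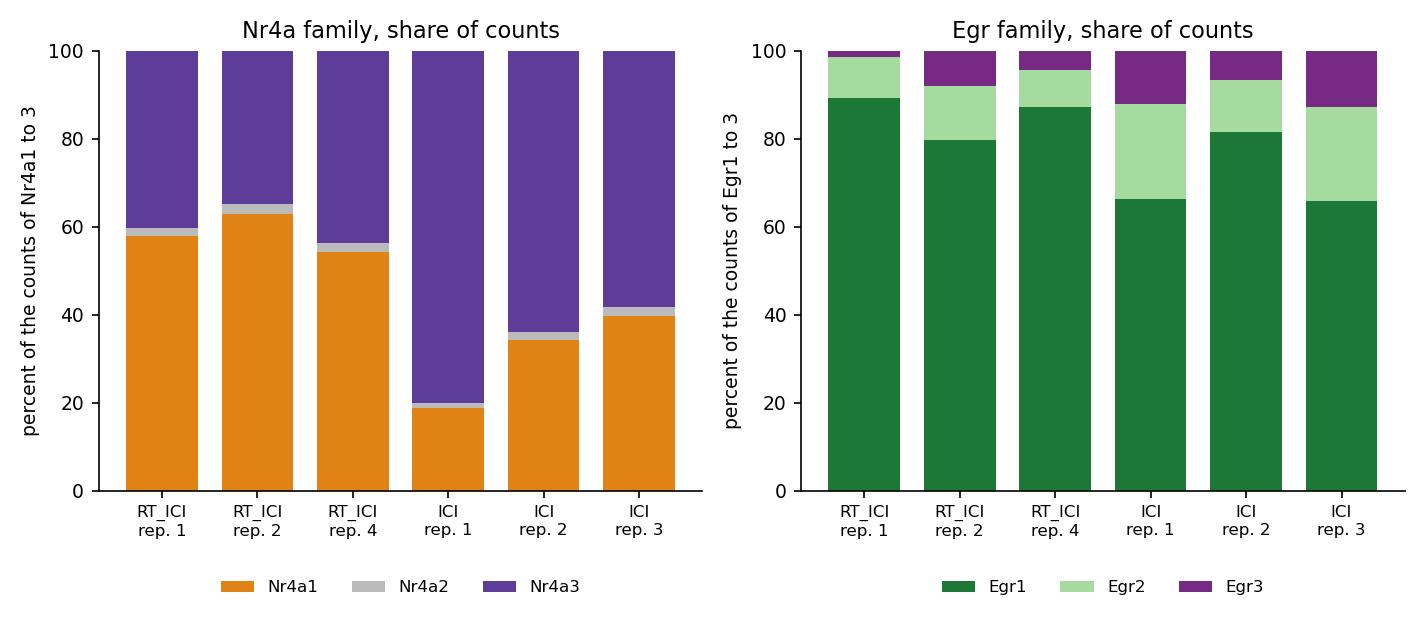
Share of the counts of Nr4a1, Nr4a2 and Nr4a3 (left) and of Egr1, Egr2 and Egr3 (right) in each library, in percent of each family's counts; bars are single libraries. Nr4a1 takes 54.2% to 62.8% in RT_ICI and 18.8% to 39.7% in ICI, and Egr1 is the main Egr transcript in all 6 libraries.

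Promoter sequences were found for 7 of the 10 genes in the RefSeq table (GRCm38.p6). Those of the 3 Nr4a genes are shown because the genes are of one family, share a motif and had log2 fold changes of both signs. The windows searched are the 250 bases before the start that RefSeq gives, 5′ to 3′ on the gene's strand. RefSeq and GENCODE start Nr4a2 at the same base, but the RefSeq start lies 12577 bases downstream of the first GENCODE start for Nr4a1 and 152 bases downstream for Nr4a3. The Nr4a3 window therefore runs 152 bases into a GENCODE exon, and the 98 bases before that exon are shown. Capitals mark TGACG, the core of the cyclic AMP response element that CREB and ATF factors bind, on either strand (CGTCA on the other), and GCGNGGGCG, the motif of EGR factors, on either strand.
Nr4a1, chr15:101266596-101266845, plus strand: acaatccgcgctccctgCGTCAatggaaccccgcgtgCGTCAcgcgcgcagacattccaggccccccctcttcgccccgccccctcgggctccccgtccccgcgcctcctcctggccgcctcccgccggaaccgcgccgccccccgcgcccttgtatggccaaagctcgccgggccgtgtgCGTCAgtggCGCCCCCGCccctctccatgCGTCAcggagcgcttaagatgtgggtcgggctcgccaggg
Nr4a2, chr2:57124004-57124253, minus strand: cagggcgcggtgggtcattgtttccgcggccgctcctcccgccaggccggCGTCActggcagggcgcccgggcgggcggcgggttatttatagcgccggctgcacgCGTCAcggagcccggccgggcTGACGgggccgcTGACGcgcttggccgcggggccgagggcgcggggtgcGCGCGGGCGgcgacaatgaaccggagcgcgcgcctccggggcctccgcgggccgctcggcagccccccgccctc
Nr4a3, chr4:48045055-48045152, plus strand: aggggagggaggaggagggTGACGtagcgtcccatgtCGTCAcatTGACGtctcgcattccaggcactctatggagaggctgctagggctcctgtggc
Each of the 3 windows held 4 TGACG matches, of which 3 lie in the shown stretch of Nr4a3. Among 11429 tested genes with a promoter in the table, 29.1% held at least 1 match and 0.367% held at least 4. The EGR motif occurred once in the windows of Nr4a1 and Nr4a2 and not in that of Nr4a3, and 9.76% of those genes held it. The full element TGACGTCA (2.90% of genes), the AP-1 motif TGANTCA (5.61%) and the NR4A monomer motif AAAGGTCA (1.18%) matched in none of the 7 genes' windows. TGACG is contained in TGACGTCA, and both strands were searched for each motif. The matches are letters in a window and not evidence of binding.

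Markers of T cells, in which NR4A factors are often studied, were like Nr4a3 highest in ICI replicate 1. The 6 T cell genes summed to 11.2, 1.104 and 1.03 CPM in RT_ICI replicates 1, 2 and 4, and to 44.4, 15.9 and 2.72 CPM in ICI replicates 1, 2 and 3. Of these 6 genes 0 were called (0 at an unadjusted p under 0.05 in edgeR), and each had a log2 fold change below 0. Nr4a3 was above 100 CPM in each ICI library, a level that cannot be set against the marker sums as a measure of T cell content. The part of T cell content in the Nr4a values was not tested. Of 8 genes that accompany NR4A factors in chronically stimulated T cells, 6 were tested, 0 were called and 0 passed at an unadjusted p under 0.05 in edgeR. Their median log2 fold change was 0.11. Lag3, an inhibitory receptor, was at 8.14 ± 8.40 CPM in RT_ICI and 3.79 ± 1.80 CPM in ICI (adjusted p = 0.378, edgeR), and without RT_ICI replicate 1 its log2 fold change of 1.11 became -0.17. Tnfrsf9, the costimulatory receptor 4-1BB, was at 3.19 ± 1.93 CPM in RT_ICI and 5.02 ± 2.48 CPM in ICI (adjusted p = 0.425, edgeR).

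Among the Egr genes, Egr1 had the largest log2 fold change of the 10 genes and the widest ratio of highest to lowest RT_ICI library. It stood at 66.6, 12.5 and 14.7 CPM in RT_ICI replicates 1, 2 and 4, against 4.26, 4.68 and 5.42 CPM in ICI replicates 1, 2 and 3. The 3 ICI libraries lay within 1.27-fold of each other, every RT_ICI library was above them, and RT_ICI replicate 1 was 5.35 times the lowest of its group. With that spread the log2 fold change of 2.71 (SE 0.71) was not called (adjusted p = 0.0643, edgeR). Without RT_ICI replicate 1, which held the highest value, it was 1.51 (SE 0.20) and was called higher (adjusted p = 0.0120, edgeR). The smaller SE follows in part from leaving out that value. Over the 17 alternatives the log2 fold change ran from 1.42 to 3.10 with an adjusted p from 0.00523 to 0.207, and 4 of them called it.

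Egr2 was at 6.95, 1.92 and 1.40 CPM in RT_ICI replicates 1, 2 and 4, and at 1.38, 0.679 and 1.78 CPM in ICI replicates 1, 2 and 3. RT_ICI replicate 1 again stood far above the rest, while the other RT_ICI libraries lay near the upper ICI values. The difference was not called (log2 fold change 1.42, SE 0.65, adjusted p = 0.181, edgeR), and without RT_ICI replicate 1 the log2 fold change was 0.38. Over the 17 alternatives its adjusted p ran from 0.0469 to 0.617, and 1 of them called it, edgeR with the replicate number as a block (adjusted p = 0.0469). Egr3, the least abundant of the 10, had 28, 55 and 16 counts in RT_ICI replicates 1, 2 and 4 and 27, 15 and 50 counts in ICI replicates 1, 2 and 3. Its groups overlapped, the ICI libraries alone differed by 2.77 times in CPM, and it was not called (log2 fold change 0.44, SE 0.46, adjusted p = 0.530, edgeR).

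Egr1 supplied most counts of its family in every library, 89.3%, 79.8% and 87.3% in RT_ICI replicates 1, 2 and 4, against 66.4%, 81.6% and 65.7% in ICI replicates 1, 2 and 3, and these groups overlapped. The 95% Wilson intervals reach at most 6.43 percentage points to either side. The fourth member of the family, Egr4, had 7, 0 and 0 counts in RT_ICI replicates 1, 2 and 4 and 0 counts in each ICI library, and did not pass the filter. Of 7 tested partners and textbook targets of EGR factors, 0 were called, while an unadjusted p under 0.05 in edgeR was reached by 1 that was higher and 2 that were lower, and their median log2 fold change was -0.17. The NAB co-repressors, which bind EGR proteins and are themselves EGR targets, lay apart from each other. Nab2 was at 32.4 ± 6.88 CPM in RT_ICI and 20.6 ± 2.699 CPM in ICI (adjusted p = 0.0669, edgeR), and Nab1 was at 45.5 ± 5.96 CPM in RT_ICI and 67.9 ± 10.2 CPM in ICI (adjusted p = 0.0542, edgeR).

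RT_ICI replicate 1 held the highest of all 6 values for 8 of the 10 genes. Its median deviation from each gene's mean log2 CPM was 0.82, while RT_ICI replicates 2 and 4 had 0.27 and 0.28 and the ICI libraries -0.60, -0.34 and -0.17 (replicates 1, 2 and 3). The same library held the highest summed markers of endothelium, 202 CPM, while RT_ICI replicates 2 and 4 had 63.8 and 34.4 CPM and the ICI libraries 144.6, 57.4 and 138 CPM (replicates 1, 2 and 3). Its 7 skeletal muscle genes summed to 2226 CPM, while RT_ICI replicates 2 and 4 had 968 and 21.4 CPM and the ICI libraries 4.997 to 216 CPM. The 6 macrophage and monocyte genes summed to 110.3 CPM there, against 60.2 and 56.3 CPM in the other RT_ICI libraries and 55.6 to 79.8 CPM in ICI. Of these genes, Mrc1 and Cd68 were highest in RT_ICI replicate 1, at 44.5 and 43.5 CPM. Adgre1 and Csf1r were highest in ICI replicate 3, and Cx3cr1 and Ly6c2 in ICI replicate 1. Of the endothelial and muscle genes 0 were called, with 0 at an unadjusted p under 0.05 in edgeR. Of the macrophage and monocyte genes 1 was called lower, while at an unadjusted p under 0.05 in edgeR 2 were higher and 1 was lower. Neutrophil genes were low everywhere, at 2.10 to 11.03 CPM in RT_ICI and 1.53 to 2.80 CPM in ICI, and 0 of 3 tested were called (2 higher at an unadjusted p under 0.05 in edgeR). S100a8, S100a9 and Retnlg were highest in RT_ICI replicate 1, and Csf3r and Cxcr2 in ICI replicate 3. The 6 fat cell marker genes summed to 46.4, 41.4 and 37.2 CPM in RT_ICI replicates 1, 2 and 4, against 4.51, 5.54 and 12.9 CPM in ICI replicates 1, 2 and 3, and 2 of them rose, Plin4 and Lipe. Plin4 was the largest part of each RT_ICI sum, at 30.4, 28.1 and 16.1 CPM in replicates 1, 2 and 4. Adipoq and Plin1, which were not called (adjusted p = 0.629 and 0.804, edgeR), were highest in ICI replicate 3. Cidec and Retn were not called either (adjusted p = 0.191 and 0.137, edgeR), but for both every RT_ICI library lay above every ICI library. All 6 genes had a log2 fold change above 0. The share of counts from mitochondrially encoded genes also separated the groups, at 11.5% to 14.7% in RT_ICI and 4.39% to 5.01% in ICI. With those genes left out before scaling, Zfp36, Nr4a1 and Ier2 were still called higher, with log2 fold changes of 1.345, 0.802 and 0.805. The part of the other cell types in the values of the 10 genes was not tested. Without RT_ICI replicate 1 4 of the 10 genes were called higher, Egr1 in addition to Zfp36, Nr4a1 and Ier2, where 8.91% of tested genes were, and 0 were called lower, where 8.80% of tested genes were.

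**Figure D3:**
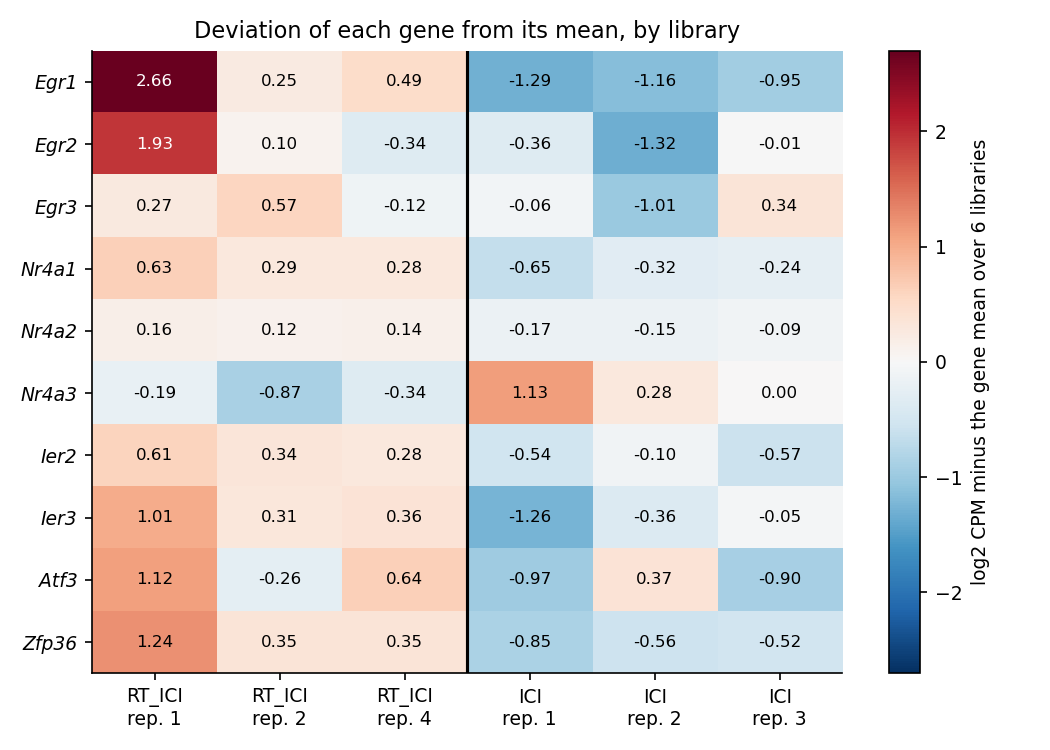
Log2 CPM of each gene minus its mean over the 6 libraries, with red above and blue below the mean and the values printed in the cells. RT_ICI replicate 1 has a median of 0.82 over the 10 genes, and Nr4a3 is the gene with all RT_ICI values below all ICI values.

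Among the feedback regulators, Zfp36 had the smallest adjusted p of the 10. Zfp36 (ENSMUSG00000044786, chromosome 7, 28376784 to 28380253, minus strand, GRCm38) was at 52.9, 28.5 and 28.5 CPM in RT_ICI replicates 1, 2 and 4, against 12.4, 15.2 and 15.6 CPM in ICI replicates 1, 2 and 3. The 3 ICI libraries lay within 1.26-fold of each other, and the lowest RT_ICI library was well above them. It rose 2.54-fold (log2 fold change 1.35, SE 0.26, adjusted p = 0.0328, edgeR). Without RT_ICI replicate 1 the log2 fold change was 0.99, and Zfp36 was again called (adjusted p = 0.0145, within a range of 4.5e-05 to 0.152 over the alternatives). Once counts were corrected for transcript length and GC content, 1.45% of tested genes were called higher and 1.92% lower. Of the 10 genes Zfp36 alone was called in that fit. The antisense gene Gm44710 overlaps 3.60% of its exon sequence, and reads of that stretch cannot be assigned without strand information.

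For Zfp36, 30 bases are shown around a CArG box, the element through which SRF acts on early genes, which is in capitals. The RefSeq start of Zfp36 lies 1025 bases downstream of the first GENCODE start, so that its whole window of 250 bases is part of an exon in GENCODE.
Zfp36, chr7:28379267-28379296, minus strand: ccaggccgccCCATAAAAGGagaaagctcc
The CArG box began 58 bases before the RefSeq start and the EGR motif GCGNGGGCG, outside the shown stretch, 105 bases before it. Of the tested genes with a promoter in the table, 1.45% held a CArG box. Of the 7 genes here with a promoter, Zfp36 and Egr2 held one.

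Of the paralogs of Zfp36, Zfp36l1 fell and Zfp36l2 was not called; Zfp36l2 was chosen for naming after its values were seen. Zfp36l1, which encodes a related RNA-binding decay factor, fell to 32.7 ± 1.28 CPM in RT_ICI, against 55.0 ± 1.76 CPM in ICI (log2 fold change -0.75, SE 0.11, adjusted p = 0.0254, edgeR). Zfp36l2 was at 51.4 ± 14.6 CPM in RT_ICI and 61.1 ± 12.4 CPM in ICI and was not called (adjusted p = 0.475, edgeR). Of 10 transcripts known to be destabilised through AU-rich elements by ZFP36, 7 were tested and 0 were called, with 1 higher at an unadjusted p under 0.05 in edgeR and a median log2 fold change of -0.19. Cxcl1, a neutrophil chemokine, was at 2.83 ± 1.47 CPM in RT_ICI and 0.661 ± 0.805 CPM in ICI (adjusted p = 0.150, edgeR), and its log2 fold change of 2.06 was 3.79 without ICI replicate 3. Il1b was at 0.250 ± 0.279 CPM in RT_ICI and 0.625 ± 0.546 CPM in ICI (adjusted p = 0.328, edgeR), and its log2 fold change of -1.32 was -2.62 without RT_ICI replicate 1 and -0.31 without ICI replicate 3. Il1b, Il6, Cxcl2, Csf2 and Il10 averaged under 1 CPM in both groups, which limits what could be detected.

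The 10 transcripts themselves differ in the AU-rich core TATTTAT, the DNA spelling of the ZFP36 target motif, within the 3′ untranslated region of the longest transcript. Ier3 held 4 matches, Zfp36 3, Nr4a3 2 and Nr4a2 and Atf3 1 each, while the other 5 held 0. Of 11381 tested genes with such a region, 31.4% held at least 1, 4.24% at least 3 and 1.51% at least 4. Both groups of transcripts, with and without a match, included called genes: Zfp36 with, Nr4a1 and Ier2 without.

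Ier2 (ENSMUSG00000053560, chromosome 8, 84661331 to 84662852, minus strand), a short intronless early gene, was at 76.7, 63.4 and 60.8 CPM in RT_ICI replicates 1, 2 and 4, against 34.4, 46.7 and 33.7 CPM in ICI replicates 1, 2 and 3. All RT_ICI libraries were above all ICI libraries. It rose 1.75-fold (log2 fold change 0.81, SE 0.17, adjusted p = 0.0346, edgeR). With 60.9% GC its transcript is richer in GC than 97.4% of tested genes, and with counts corrected for length and GC content its log2 fold change was 0.40 and no longer called (adjusted p = 0.117, within a range of 0.000915 to 0.155 over the alternatives). Nr4a1, with 57.0% GC, had a log2 fold change of 0.56 in that corrected fit and was not called either (adjusted p = 0.0846, within a range of 0.000446 to 0.152).

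Ier3, an early gene that modulates survival and NF-κB signalling, was at 101, 61.9 and 64.2 CPM in RT_ICI replicates 1, 2 and 4, against 20.8, 38.9 and 48.2 CPM in ICI replicates 1, 2 and 3. The groups did not overlap, but ICI replicate 1 was below the other ICI libraries and RT_ICI replicate 1 well above the other RT_ICI libraries. The log2 fold change of 1.07 (SE 0.33) was not called (adjusted p = 0.0794, edgeR), while DESeq2 called it (adjusted p = 0.00875, within a range of 0.00875 to 0.332). Atf3 was at 43.1, 16.6 and 31.0 CPM in RT_ICI replicates 1, 2 and 4, and at 10.1, 25.6 and 10.6 CPM in ICI replicates 1, 2 and 3. ICI replicate 2 lay above RT_ICI replicate 2, and the difference was not called in edgeR (log2 fold change 0.97, SE 0.48, adjusted p = 0.216) or in any of the 17 alternatives.

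Atf3 is induced by the integrated stress response through ATF4. Of 8 ATF3 partners and ATF4 stress genes 0 were called, with an unadjusted p under 0.05 in edgeR for 1 gene, which was lower, and a median log2 fold change of -0.21. The summed level of that list was 786, 798 and 1370 CPM in RT_ICI replicates 1, 2 and 4, against 791, 1734 and 796 CPM in ICI replicates 1, 2 and 3, so that ICI replicate 2 and RT_ICI replicate 4 were high. Atf3 itself was highest in RT_ICI replicate 1, where the sum was close to those of RT_ICI replicate 2 and ICI replicates 1 and 3. Within ICI, Atf3 was highest in replicate 2. Single genes of the list went both ways in RT_ICI replicate 1 when set against ICI replicates 1 and 3. Ppp1r15a, Ddit3 and Gadd45a were higher than in both, Jdp2, Trib3, Chac1 and Asns were lower, and Atf4 lay between. Jdp2, a leucine zipper partner, was at 40.0 ± 8.57 CPM in RT_ICI and 57.9 ± 10.5 CPM in ICI (adjusted p = 0.104, edgeR), and Asns, asparagine synthetase, at 124 ± 59.0 CPM in RT_ICI and 212 ± 88.7 CPM in ICI (adjusted p = 0.230, edgeR).

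**Figure D4:**
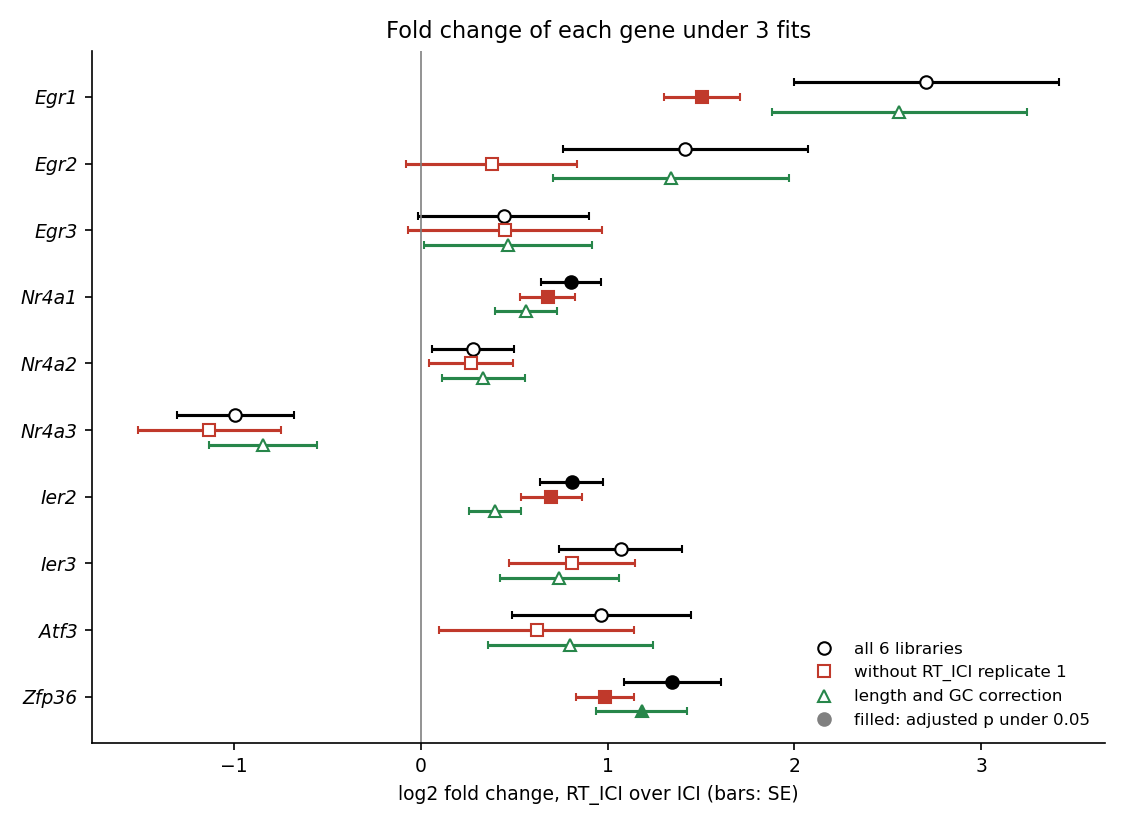
Log2 fold change of RT_ICI over ICI for each gene, with standard errors, from all 6 libraries, without RT_ICI replicate 1, and with the length and GC correction; filled symbols have an adjusted p under 0.05. Without RT_ICI replicate 1 the log2 fold change of Egr1 is 1.51 in place of 2.71, and Zfp36 is called in all 3 fits.

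Levels of different genes were compared per kilobase of transcript, using the longest annotated transcript of each. In RT_ICI the order of mean level, in CPM per kilobase, was Ier3 (66.8), Nr4a1 (51.6), Ier2 (44.0), Nr4a3 (15.8), Atf3 (15.2), Zfp36 (13.1), Egr1 (6.98), Nr4a2 (1.36), Egr2 (1.15) and Egr3 (0.252). Among neighbours in that order, the ranges over libraries separated Ier2 from Nr4a3, Egr1 from Nr4a2 and Egr2 from Egr3, and the other neighbours overlapped. In ICI the order, in CPM per kilobase, was Ier3 (31.8), Nr4a3 (31.5), Nr4a1 (29.6), Ier2 (25.2), Atf3 (7.80), Zfp36 (5.16), Nr4a2 (1.12), Egr1 (1.07), Egr2 (0.431) and Egr3 (0.186). There the ranges separated Ier2 from Atf3, Zfp36 from Nr4a2 and Egr1 from Egr2. Egr1 was above Nr4a2 in every RT_ICI library, while their ranges overlapped in ICI.

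Other early genes were read from lists chosen with earlier results of these data known. Over all tested genes 4.46% rose and 4.72% fell. Of 20 other immediate early transcription factors and early regulators, 6 rose, 0 fell and 14 were not called, with a median log2 fold change of 0.89. Klf2, a factor of quiescent endothelium and T cells, was at 19.3 ± 2.01 CPM in RT_ICI and 5.30 ± 0.794 CPM in ICI. Per1, a clock gene that also responds early to CREB and glucocorticoid signals, was at 98.1 ± 7.30 CPM in RT_ICI and 32.98 ± 7.60 CPM in ICI. Both had an adjusted p of 0.0189 (edgeR). Fosb was at 30.5 ± 18.2 CPM in RT_ICI and 4.14 ± 1.71 CPM in ICI (adjusted p = 0.0328, edgeR), and without RT_ICI replicate 1 its log2 fold change was 2.28 in place of 2.87. Junb was at 98.2 ± 42.5 CPM in RT_ICI and 42.2 ± 1.45 CPM in ICI (adjusted p = 0.0402, edgeR). With the length and GC correction Junb was at a log2 fold change of 0.77 and was not called, while Klf2, Per1 and Fosb were. Fosb was not called with no filter on low counts. Klf2, Per1, Fosb and Junb all lost their calls without ICI replicate 1, without ICI replicate 3 and without RT_ICI replicate 2. In those fits 0 to 2 of all genes were called higher. Fosb and Junb also lost theirs without ICI replicate 2 and without RT_ICI replicate 4.

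Where 4.46% of all tested genes rose and 4.72% fell, 3 of 18 early feedback regulators rose, 1 fell and 14 were not called. The median log2 fold change of these regulators was 0.29. The genes that rose were Gadd45g, Gadd45b and Dusp1. Gadd45g, a stress sensor that feeds into p38 and JNK signalling, was at 14.3 ± 4.00 CPM in RT_ICI and 5.99 ± 0.786 CPM in ICI (adjusted p = 0.0328, edgeR). Gadd45b, its paralog, was at 25.0 ± 3.83 CPM in RT_ICI and 13.4 ± 1.87 CPM in ICI (adjusted p = 0.0339, edgeR). Dusp1, the phosphatase that switches off MAP kinases, was at 30.9 ± 16.6 CPM in RT_ICI and 10.4 ± 2.67 CPM in ICI (adjusted p = 0.0477, edgeR). None of these 3 was called with the length and GC correction, where their log2 fold changes were 0.80 for Gadd45g, 0.57 for Gadd45b and 1.36 for Dusp1, and Dusp1 was also not called by limma-voom or with no filter on low counts. The gene that fell was Zfp36l1, which was called with that correction.

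Of 12 SRF, ETS and CREB factors and coactivators, 0 rose and 2 fell, with a median log2 fold change of -0.12. Creb1 fell to 33.6 ± 7.05 CPM in RT_ICI, against 59.2 ± 2.78 CPM in ICI (adjusted p = 0.0346, edgeR), and Mrtfb, an SRF coactivator, to 33.2 ± 2.97 CPM against 47.6 ± 2.17 CPM (adjusted p = 0.0437, edgeR). Neither was called with the length and GC correction (log2 fold change -0.54 for Creb1 and -0.37 for Mrtfb), and Mrtfb was not called with upper-quartile scaling (-0.43). Of 6 heat shock genes that respond to stress and tissue handling, 0 rose and 1 fell, against the same 4.46% and 4.72%. Their median log2 fold change was -0.50. Hsph1, a cochaperone of the HSP110 family, fell to 48.5 ± 8.63 CPM in RT_ICI, against 166 ± 54.2 CPM in ICI (adjusted p = 0.0252, edgeR).

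**Figure D5:**
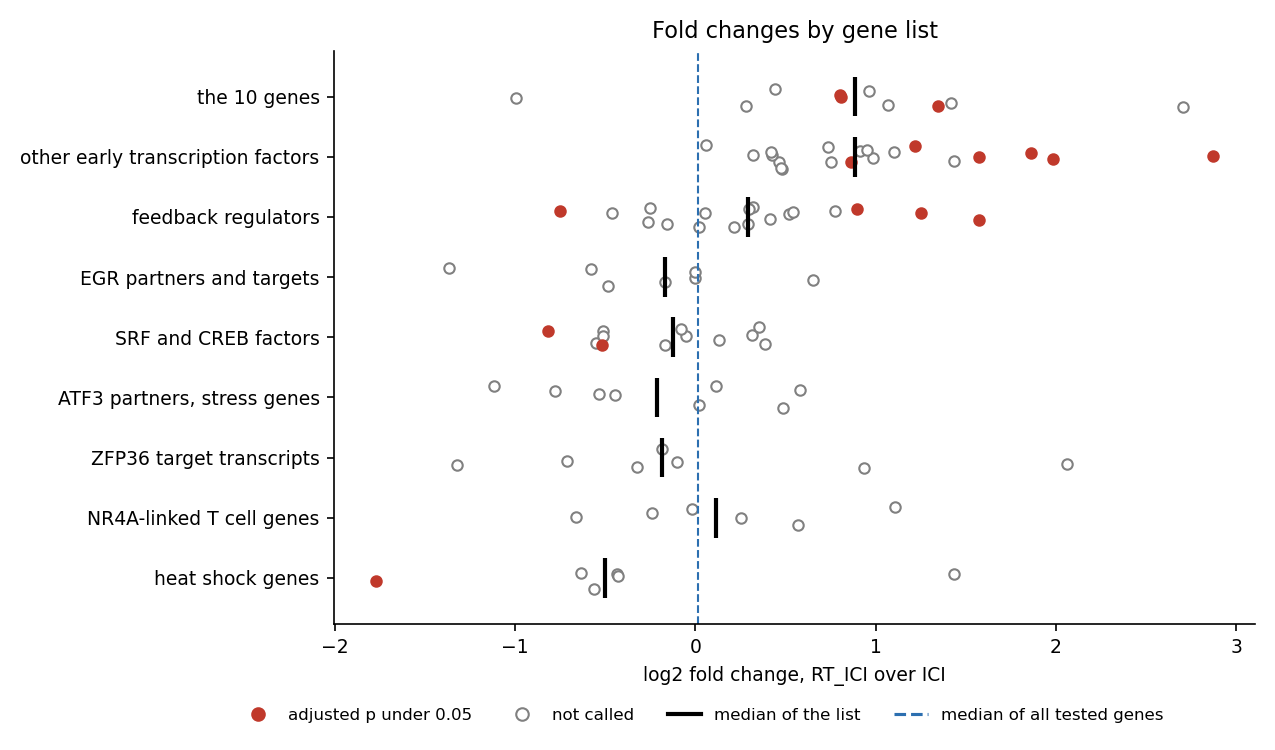
Log2 fold change of RT_ICI over ICI for the 10 genes and 8 lists of related genes; filled points have an adjusted p under 0.05, black bars are list medians and the dashed line is the median of all tested genes. The 10 genes and the other early transcription factors both have a median of 0.89, against 0.01 over all tested genes.

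The genes whose pattern over the 6 libraries was most like the mean standardised profile of the 10 were Ifi30, Prr7, Cry2, Urod, Nfkbia and Adh1, with Pearson correlations of 0.988 to 0.995 over 6 libraries, among tested genes that averaged 1 CPM or more. All 6 were highest in RT_ICI replicate 1. Of these 6 genes, 1 was called, Ifi30, a lysosomal thiol reductase of antigen processing, at 125 ± 39.9 CPM in RT_ICI and 64.6 ± 3.59 CPM in ICI (adjusted p = 0.0390, edgeR), a call that ended with the length and GC correction (log2 fold change 0.65). Among the members Zfp36 and Egr1 followed the mean profile most closely and Nr4a3 ran against it. Each member is itself part of that profile, which raises its correlation with it.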

How the data were processed

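Bulk tumour RNA was measured in 6 libraries. The authors deposited raw counts per gene, which are whole numbers; reads were aligned with HISAT2 to GRCm38 (mm10), per the submitters' processing notes. The sources used here do not name the counting tool or its strand setting. The 10 genes and the lists of related genes and markers were chosen with earlier results of these data known. Counts were filtered with filterByExpr, scaled by TMM and tested with edgeR 4.0.16 (quasi-likelihood, robust, two-sided, R 4.3.3), RT_ICI against ICI over all 16924 genes kept, with Benjamini-Hochberg adjustment. DESeq2 1.42.0, limma-voom (limma 3.58.1), other scalings and filters, a replicate block, each library left out in turn, and a length and GC correction (mgcv 1.9.3) were alternatives. The procedure was run on simulated counts in which no library stood apart, so that run does not cover such a case. Correlations used log2 CPM with a prior count of 2. Totals were 22543721 to 45624013 counts per library, and Wilson intervals reflect counting error alone. No pair of libraries agreed within counting noise (chi-square per degree of freedom at least 40.0).

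All 10 genes are named. From each list up to 4 called genes with the smallest adjusted p are named, or, with none called, the 2 with the smallest p. The 6 genes most like the mean profile are named. Positions, lengths and 3′ regions are from GENCODE M21 (GRCm38), and promoters from RefSeq (GRCm38.p6).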

Additional observations from a re-analysis of the deposited data

How the results depend on the processing

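The log2 fold changes of the 10 genes gave 169 values over 17 alternatives: 141 stayed on the same side of the threshold, 20 lost a call, 8 gained one and 0 changed sign. Of the 10 genes, 5 were called higher and 1 lower with DESeq2 and, likewise, at an adjusted p under 0.1, and 1 was called higher after the length and GC correction. Leaving out 1 library gave 0 to 4 higher and 0 lower. Among all genes, upper-quartile scaling called 1046 higher and 497 lower, no filter 1121 and 1507, DESeq2 1746 and 1703, the length and GC correction 245 and 324, that correction without RT_ICI replicate 1 1185 and 1292, and an adjusted p under 0.1 1802 and 1833. Leaving out 1 library gave 0 to 1564 higher and 0 to 1545 lower, the highest without RT_ICI replicate 1. Of the listed genes, 9 higher and 4 lower in the reported fit, no filter called 9 lower, DESeq2 17 higher and 7 lower, the length and GC correction 3 higher and 2 lower, that correction without RT_ICI replicate 1 7 lower, and an adjusted p under 0.1 16 higher and 7 lower. Leaving out 1 library gave 0 to 11 higher and 0 to 11 lower. The length and GC correction without RT_ICI replicate 1, and all counts over the lists, were chosen after seeing the data.

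The groups share the replicate numbers 1 and 2, and nothing in the labels says that a number marks a shared source. Deviations of same-numbered libraries correlated at 0.353 for number 1 and 0.0909 for number 2, so the numbers were not taken as pairs. With the replicate number as a block, ICI replicate 3 and RT_ICI replicate 4 share a number with no other library. The group difference then rests on the libraries numbered 1 and 2, with little left to estimate scatter. In that fit 2 of the 10 genes were called higher (Zfp36 and Egr2) and 1 lower (Nr4a3), and 400 of all genes were called higher and 245 lower. Nr4a1 and Ier2, and of the other named genes Fosb, Gadd45b, Zfp36l1, Mrtfb and Ifi30, were not called there.

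Lag3 ranged from -0.17 to 1.55 in log2 fold change with 1 library left out, was below 0 without RT_ICI replicate 1, and stayed below 0 there with the length and GC correction (-0.49). Urod changed sign with that correction (-0.011) and with that correction without RT_ICI replicate 1 (-0.029). The causes were not tested. Egr3 rests on 15 to 55 counts per library.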
